A study of Mus musculus with 12 samples.

Results

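The nuclear-encoded subunits of the mitochondrial respiratory chain were examined in mouse colorectal cancer (CRC) tissue grown in the liver. They were taken as all genes with a single symbol in the platform annotation that carries the name of a complex I subunit (Ndufa, Ndufb, Ndufc, Ndufs or Ndufv with a number), a complex II subunit (Sdha to Sdhd), a complex III subunit (Uqcr), a complex IV subunit (Cox4 to Cox8) or an ATP synthase subunit (Atp5). The members were chosen with earlier results of these data known, but no measured value entered this choice by symbol. It gave 80 of the 22180 genes on the array, 31 in complex I, 4 in complex II, 8 in complex III, 19 in complex IV and 18 in complex V. Ndufa4 and Ndufa4l2 were counted with complex IV, where their proteins are now placed. All 80 matched the same symbol in RefSeq by gene number, and 2 of them, Uqcrh-ps1 and Atp5c1-ps, are pseudogenes.

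The respiratory chain sits in the inner mitochondrial membrane. Complexes I and II pass electrons from NADH and succinate to ubiquinone, complex III passes them on to cytochrome c, and complex IV hands them to oxygen. Complexes I, III and IV pump protons as they do so, and complex V, the ATP synthase, uses the returning protons to make ATP. A small set of core subunits is encoded by mitochondrial DNA. The others are encoded in the nucleus, made in the cytosol and imported, and some of the complex IV subunits exist as tissue isoforms, among them forms typical of heart and skeletal muscle.

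There were 4 groups of 3 mice per the series' design text, and 12 arrays that the labels call biological replicates. The 2 fatty liver groups had received anti-VEGF or vehicle, and so had the 2 healthy liver groups. Anti-VEGF is an antiangiogenic agent against vascular endothelial growth factor. What all groups share is that mouse colorectal cancer had been injected into the liver. The sources used here do not give the strain, sex or age of the mice, the cancer line, the way the liver was made fatty, or the agent's dose and schedule.

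Values are log2 expression values as the authors deposited them, and a difference of 1 is a 2-fold difference. Since each gene is read by its own probes, values are compared between groups and not between genes. The limit for testing a gene was a value over 4.93, the table's overall median, on 3 or more arrays, and 13286 genes passed it. Differences between groups were tested with limma, with Benjamini-Hochberg adjusted p-values over all of these genes and a threshold of 0.05. Errors beside differences are limma standard errors (SE).

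Several arrays stood apart or close together, and this touches every result below. Arrays 1 and 3 of fatty liver with vehicle differed over the tested genes by an SD of only 0.163, as did arrays 1 and 3 of healthy liver with vehicle, and the 3 arrays of healthy liver with anti-VEGF differed by 0.148 to 0.156. All other pairs within a group differed by 0.391 to 0.636. Averaging the near-identical arrays leaves 8 arrays in place of 12, and p-values from 12 arrays may measure spread that is in part technical. Xist, a long RNA made from the inactive X chromosome of females, read 10.6 and 10.4 on arrays 1 and 3 of fatty liver with vehicle and 8.10 and 8.43 on arrays 1 and 3 of healthy liver with vehicle. It was below the limit on the 8 other arrays, at most 4.32, including all those with anti-VEGF. The Y-linked Uty read 8.03 to 8.40 on the arrays of fatty liver with anti-VEGF and 5.39 to 5.54 on those of healthy liver with anti-VEGF. With vehicle Uty read 8.54 on array 2 of fatty liver and 7.27 on array 2 of healthy liver. On arrays 1 and 3 of the vehicle groups it read 3.84 to 4.16.

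The cell types in the tissue also differed with the liver. All 11 macrophage markers tested were higher in fatty than in healthy liver under either treatment. Their mean level per array was 11.37 to 11.68 in fatty liver with anti-VEGF and 11.60 to 11.68 in fatty liver with vehicle, against 9.26 to 9.28 in healthy liver with anti-VEGF and 9.43 to 10.48 in healthy liver with vehicle. Of 10 T and NK cell markers, 8 were higher in fatty liver with anti-VEGF and all 10 in fatty liver with vehicle. Of 7 markers of dividing cells, 3 were lower in fatty liver under anti-VEGF and 6 under vehicle. Endothelial and fibroblast markers were high on healthy liver vehicle array 2, with means of 8.40 and 9.36, against 5.68 to 5.69 and 7.03 to 7.12 on the 2 other arrays of that group. They were also high on fatty liver vehicle array 2, at 7.21 and 7.95, against at most 6.001 and 6.52 on the others, and on fatty liver anti-VEGF array 1, at 6.85 and 8.26, against 5.84 to 5.93 and 6.86 to 7.31. T and NK cell markers averaged 5.72 on fatty liver anti-VEGF array 3, against 7.81 to 7.94 on the others of its group. Of 10 colorectal epithelium markers, Cdx1, Epcam, Krt19, Krt20, Lgr5 and Vil1 were below the limit on all 12 arrays. Of the 4 tested, Krt8 differed between fatty and healthy liver by -0.87 under anti-VEGF and -0.84 under vehicle and Krt18 by -1.28 and -0.88, all called, whereas Cdh1 was higher, by 1.61 and 2.37, and Cdx2 was not called. Of 10 hepatocyte markers, 7 were below the limit on all arrays, Alb among them, and 3 were tested. Of these, Ass1 was higher in fatty liver under vehicle, by 0.59, Apoa1 was lower under anti-VEGF, at -0.35, and Ttr was not called. In such bulk tissue, fewer cells of a type and less RNA per cell cannot be told apart, and the part of the cell types in the results below was not tested.

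Promoter sequences are shown first for 4 subunits of opposite direction. Cox7a1 and Atp5k were higher, and Ndufv1 and Ndufa10 lower, in fatty liver under both treatments, and under vehicle these calls held whichever of the 12 arrays was left out. Under anti-VEGF those of Cox7a1 and Atp5k held in all 12 such fits, that of Ndufv1 in 4 and that of Ndufa10 in 3. Such fits are a weak check here, since leaving out 1 near-identical array keeps its near copy. With the near-identical arrays averaged, only the call of Cox7a1 under vehicle remained (limma adjusted p = 0.0417). Those of Atp5k, Ndufv1 and Ndufa10 under vehicle then had limma adjusted p-values of 0.0877, 0.136 and 0.159. The windows run from 250 bases before to 50 bases after the transcription start, read 5′ to 3′ on the gene's strand, from RefSeq on GRCm38.p6. They lie at chr7:30183921-30184220 on the plus strand (Cox7a1), chr5:108434350-108434649 on the minus strand (Atp5k), chr19:4012706-4013005 on the minus strand (Ndufv1) and chr1:92473709-92474008 on the minus strand (Ndufa10). Capitals mark letters that match the NRF1 motif, NRF1 being nuclear respiratory factor 1, a known activator of many respiratory chain genes.
Cox7a1: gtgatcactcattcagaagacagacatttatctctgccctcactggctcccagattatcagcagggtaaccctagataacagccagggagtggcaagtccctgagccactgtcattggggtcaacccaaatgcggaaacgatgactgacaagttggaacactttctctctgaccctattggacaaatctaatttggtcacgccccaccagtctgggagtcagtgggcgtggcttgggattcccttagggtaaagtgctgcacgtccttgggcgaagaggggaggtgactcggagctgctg
Atp5k: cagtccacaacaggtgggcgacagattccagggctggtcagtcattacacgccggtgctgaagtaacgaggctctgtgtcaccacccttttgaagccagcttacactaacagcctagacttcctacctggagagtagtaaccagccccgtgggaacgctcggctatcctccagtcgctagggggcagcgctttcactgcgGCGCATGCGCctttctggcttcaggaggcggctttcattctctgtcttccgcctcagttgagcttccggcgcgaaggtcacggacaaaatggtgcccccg
Ndufv1: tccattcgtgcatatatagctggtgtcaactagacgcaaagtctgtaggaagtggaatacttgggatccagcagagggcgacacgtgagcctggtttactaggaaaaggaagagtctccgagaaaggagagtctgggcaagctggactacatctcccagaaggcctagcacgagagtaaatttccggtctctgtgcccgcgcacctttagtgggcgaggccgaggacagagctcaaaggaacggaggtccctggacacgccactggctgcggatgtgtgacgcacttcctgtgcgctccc
Ndufa10: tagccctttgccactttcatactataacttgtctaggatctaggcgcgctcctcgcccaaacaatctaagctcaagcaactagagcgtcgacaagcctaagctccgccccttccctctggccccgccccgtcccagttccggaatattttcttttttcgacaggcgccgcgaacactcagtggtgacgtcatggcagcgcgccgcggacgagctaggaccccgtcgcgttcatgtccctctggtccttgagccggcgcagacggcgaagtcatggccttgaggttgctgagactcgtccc

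The motifs searched on both strands were GCGCNTGCG for NRF1, CCGGAAGT for ETS factors such as GABPA, AAGATGGCG for YY1 and TCAAGGTCA for the ERR receptors. Of the 78 protein-coding subunits, 64 had a window, and 21 of these (32.8%) held the NRF1 motif, against 7.12% of the 27025 genes in the promoter table. YY1 letters were found in 6 subunits (9.38%, against 1.64%), ETS letters in 5 (7.81%, against 4.31%) and ERR letters in 2 (3.12%, against 0.466%). At least 1 of the 4 motifs was present in 30 subunits (46.9%, against 12.4%). The Atp5k window holds the NRF1 motif on both strands, in a pair of overlapping matches that begin 1 base apart. The other 3 windows hold none of the 4 motifs. Among the subunits with a window that were higher in fatty liver in either comparison the NRF1 motif was present in 2 of 8, and among those that were lower in 5 of 11.

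Most of the subunits varied little over the 12 arrays. The limit was passed by 72 of them, 30 in complex I, 4 in complex II, 7 in complex III, 14 in complex IV and 17 in complex V, and 69 of the 72 were above it on all 12 arrays. Over the 12 arrays the median SD of a tested subunit was 0.142, against 0.253 over all tested genes, and the median range was 0.479, against 0.785. Within groups the median SD was 0.123, against 0.172. The median level was 8.71 for the tested subunits and 7.73 over all tested genes, and genes of matched level were not compared. The range was under 0.5 for 37 of the 72 subunits and over 1 for 5 of them, namely Cox6a2 (1.55), Cox7a1 (1.52), Atp5mpl (1.18), Ndufb11 (1.16) and Atp5k (1.14). The muscle-type complex IV subunits Cox6a2 and Cox7a1 thus had the widest ranges of all tested subunits.

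**Figure D1:**
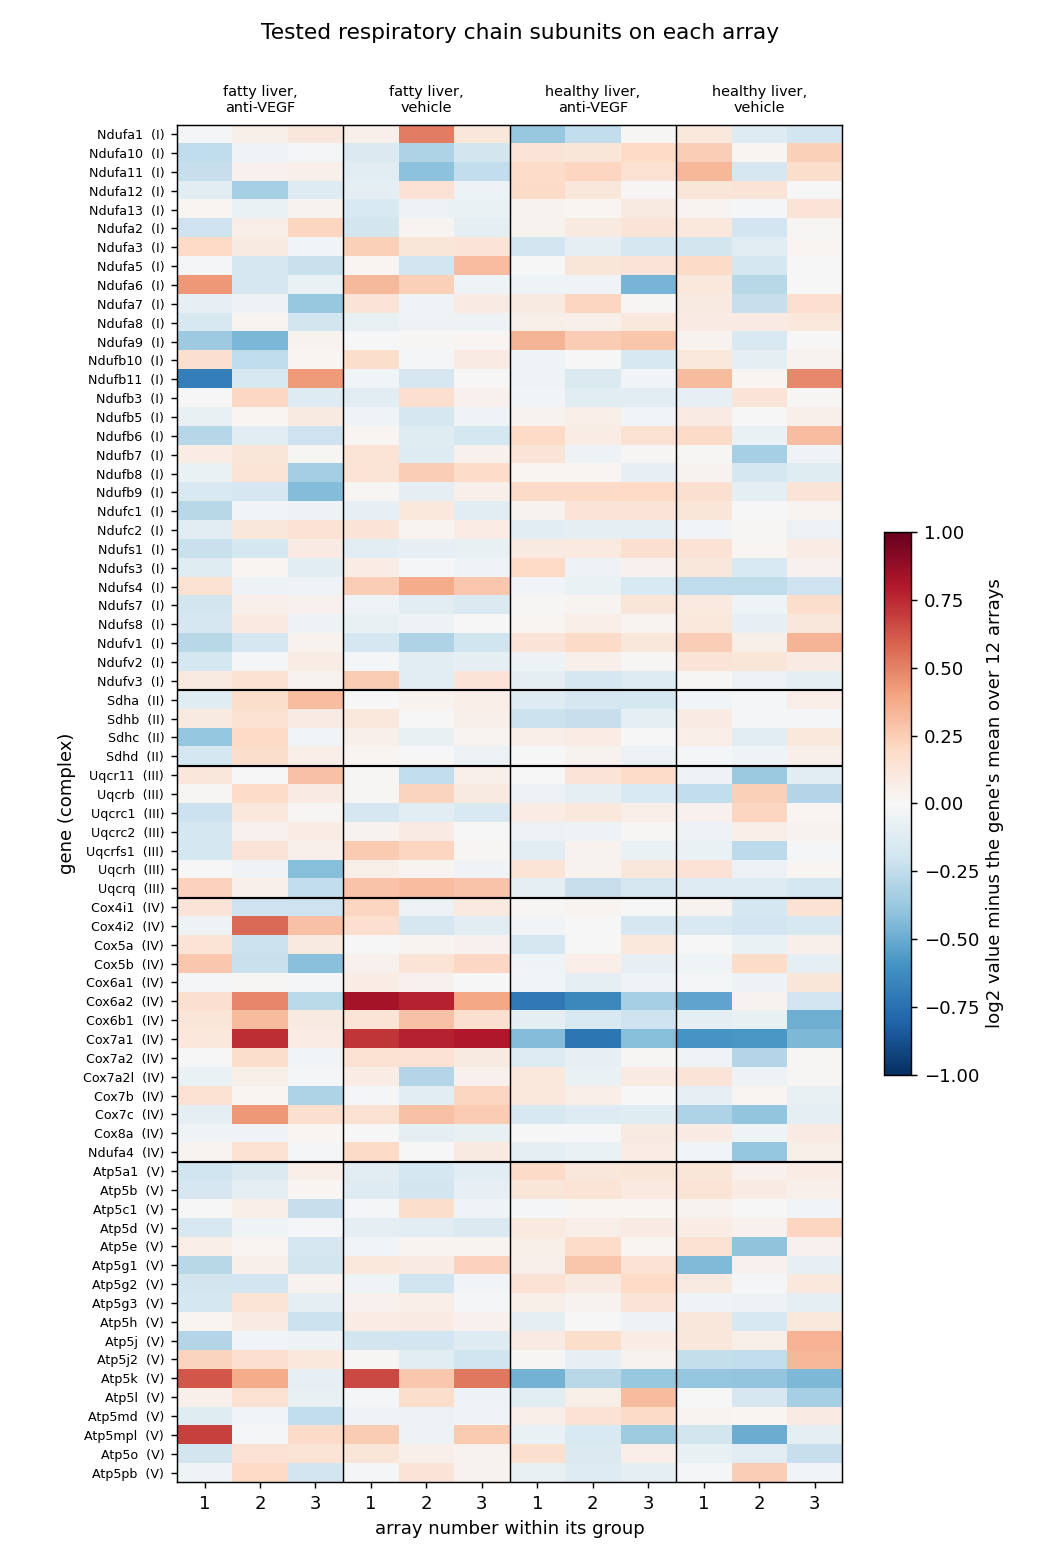
Log2 value of each of the 72 tested subunits (rows, by complex) on each of the 12 arrays (columns, by group), shown as the difference from the gene's own mean over the 12 arrays; red is above and blue below that mean. Cox7a1, Cox6a2 and Atp5k are red on most fatty liver arrays and blue on most healthy liver arrays, and most other rows are pale.

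The 8 subunits that did not pass lay below the limit on all 12 arrays. They were Ndufs5 of complex I (3.56 to 4.22), the pseudogene Uqcrh-ps1 (2.81 to 3.83), and the pseudogene Atp5c1-ps (2.88 to 3.69). In complex IV they were the testis-type isoforms Cox6b2 (3.81 to 4.43), Cox7b2 (2.51 to 2.85) and Cox8c (3.42 to 3.67), the muscle-type isoform Cox8b (3.68 to 4.02), and Ndufa4l2 (4.02 to 4.71), a hypoxia-induced relative of Ndufa4. A further 10 rows of the array carry a subunit symbol together with that of another gene and were left out, since their signal cannot be assigned. Ndufb2, Ndufb4, Ndufs6, Uqcr10 and Cox6c are represented only by such rows. Ndufs5 also shares such a row with its pseudogene, at 5.98 to 6.85.

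The first comparison asked how the tumour tissue differed between fatty and healthy liver under vehicle. Of the 72 tested subunits, 8 were higher and 6 lower in fatty liver, 19.4% of them, against 49.6% of all tested genes (19.2% higher, 30.4% lower). The median difference of the subunits was 0.03, against -0.12 over all tested genes. A difference beyond 0.5 in either direction was found in 4 subunits (5.56%), against 36.4% of all tested genes. The calls ran in both directions, and the difference between these shares was not tested.

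Complex IV had the largest single difference. Cox7a1, the heart and muscle isoform of subunit 7a, read 6.41, 6.46 and 6.49 in fatty liver with vehicle and 5.10, 5.11 and 5.24 in healthy liver with vehicle. The groups did not overlap, and the difference was 1.30 (SE 0.16, 2.47-fold, limma adjusted p = 0.000293). Cox6a2, the heart and muscle isoform of subunit 6a, read 7.31, 7.25 and 6.86 in fatty liver and 5.95, 6.51 and 6.29 in healthy liver. Its groups did not overlap either, with a difference of 0.89 (SE 0.21, limma adjusted p = 0.00683). The small structural subunit Cox7c (6.93, 7.07 and 7.03, against 6.47, 6.39 and 6.69) was higher by 0.50 (SE 0.13, limma adjusted p = 0.00978). Cox6b1, which lies between the partners of the complex IV dimer, was higher by 0.41 (SE 0.12, limma adjusted p = 0.0143). These 4 of the 14 tested complex IV subunits rose and none fell at the adjusted threshold, with a median difference of 0.12.

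The widely expressed isoforms of the same subunits did not pass the test. Cox6a1 differed by 0.02 (SE 0.07) and Cox7a2 by 0.23 (SE 0.10, limma adjusted p = 0.0678). Cox4i1 and the lung-type isoform Cox4i2 differed by 0.09 (SE 0.12) and 0.13 (SE 0.15). The differences of Cox5a, Cox5b, Cox7a2l, Cox7b, Cox8a and Ndufa4 lay between -0.10 and 0.21. Of 5 tested genes typical of striated muscle, 0 were called by limma and 1 had an unadjusted p under 0.05, with a median difference of -0.07. Acta1 (6.63 to 7.59), Tnnt3 (5.82 to 6.74) and Ckm (4.95 to 5.67) were above the limit on all arrays. Myl1 (4.48 to 5.47) and Des (4.30 to 5.57) lay on both sides of it, and the myosin genes Myh4 and Myh7 were below it on all arrays. The mean level of the 7 striated muscle markers was 4.91 to 5.17 in fatty liver with vehicle and 5.04 to 5.25 in healthy liver with vehicle. Of 4 markers of brown adipocytes, another cell type known for Cox7a1, Ucp1 and Cidea were below the limit on all arrays, and Dio2 and Prdm16 were tested and not called, at -0.38 (SE 0.32) and 0.05 (SE 0.13).

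In complex I, 2 of 30 subunits rose and 3 fell, with a median difference of -0.06. Ndufs4, an accessory subunit needed for the stability of the NADH-oxidising arm, read 10.81, 10.94 and 10.84 in fatty liver with vehicle and 10.31, 10.32 and 10.36 in healthy liver with vehicle. It was higher by 0.53 (SE 0.08, limma adjusted p = 0.00068). Ndufa3, a small accessory subunit, was higher by 0.26 (SE 0.09, limma adjusted p = 0.0309), a call that ended when the replicate number was fitted as a block (replicate block, limma adjusted p = 0.0507). Ndufv1, the core subunit that binds the flavin and oxidises NADH, went the other way, at 10.22, 10.08 and 10.18 in fatty liver and 10.63, 10.44 and 10.72 in healthy liver. It was lower by 0.44 on the log2 scale, a difference of -0.44 (SE 0.10, limma adjusted p = 0.00573), with no overlap. The accessory subunits Ndufa10 and Ndufa11 differed by -0.38 (SE 0.10, limma adjusted p = 0.00829) and -0.37 (SE 0.13, limma adjusted p = 0.0432). Ndufa11 was the only called subunit of this comparison whose groups overlapped, and its call also ended with the block (limma adjusted p = 0.0533). The core iron-sulfur subunit Ndufs1 did not pass, at -0.17 (SE 0.09).

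In complex II, succinate dehydrogenase, 0 of 4 subunits were called by limma and 0 had an unadjusted p under 0.05, and Sdha, Sdhb, Sdhc and Sdhd differed by 0.03, 0.03, -0.02 and -0.01. In complex III, 1 of 7 rose, Uqcrq, a small ubiquinone-binding subunit, by 0.44 (SE 0.11, limma adjusted p = 0.00813). It read 6.55, 6.57 and 6.55 in fatty liver with vehicle and 6.14, 6.14 and 6.09 in healthy liver with vehicle. The Rieske iron-sulfur protein Uqcrfs1 and the core protein Uqcrc1 differed in opposite directions, by 0.28 (limma adjusted p = 0.0531) and -0.24 (limma adjusted p = 0.0564), and neither passed, though Uqcrc1 did with the replicate block (limma adjusted p = 0.0446).

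In complex V, 1 of 17 subunits rose and 3 fell. Atp5k, the membrane subunit e that helps ATP synthase form dimers, read 9.17, 8.78 and 9.04 in fatty liver with vehicle and 8.13, 8.12 and 8.06 in healthy liver with vehicle. It was higher by 0.90 (SE 0.16, 1.86-fold, limma adjusted p = 0.00184). Atp5j (coupling factor 6, of the peripheral stalk), Atp5b (the catalytic beta subunit) and Atp5d (of the central stalk) differed by -0.34 (SE 0.10, limma adjusted p = 0.016), -0.22 (SE 0.07, limma adjusted p = 0.0265) and -0.22 (SE 0.07, limma adjusted p = 0.0273). The alpha subunit Atp5a1 differed by -0.21 (limma adjusted p = 0.0512). With the replicate block Atp5g1 and Atp5mpl were called as well, at 0.30 and 0.41 (limma adjusted p = 0.0416 and 0.0384). Under anti-VEGF the block also gave a call of Atp5g1, but in the other direction, at -0.29 (limma adjusted p = 0.0498). With the block and the 6 vehicle arrays only, the calls of Atp5b and Atp5d under vehicle ended (limma adjusted p = 0.058 and 0.0737). The 2 rows of Atp5d on the array disagreed, at -0.22 and 0.23. With their mean in place of the higher row the difference was 0.0052 (SE 0.08, limma adjusted p = 0.965), so that the fall was no longer seen.

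**Figure D2:**
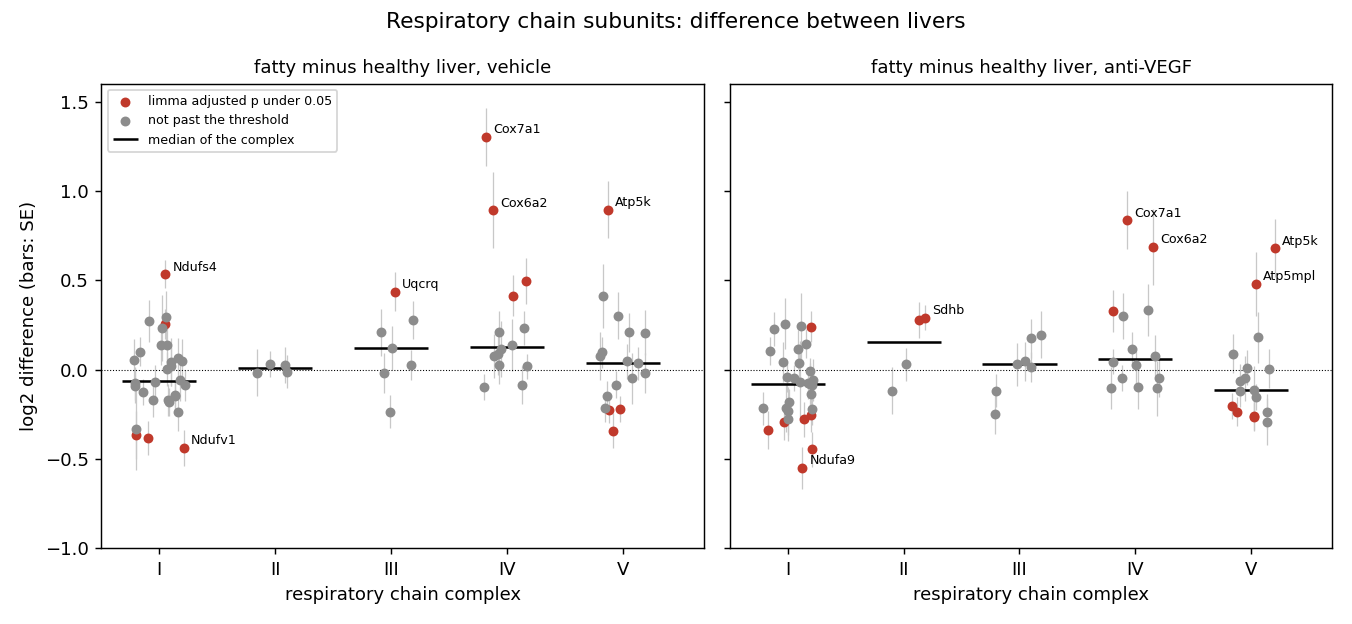
Difference in log2 value between fatty and healthy liver under vehicle (left) and under anti-VEGF (right) for each of the 72 tested subunits, by complex; points are genes, bars are standard errors, black lines are medians, and red marks a limma adjusted p under 0.05. Cox7a1, Cox6a2 and Atp5k lie above 0.5 in both panels, and the complex I points lie on both sides of 0.

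These calls depended on the near-identical arrays. With those averaged, the number of subunits called under vehicle was 1 higher and 0 lower, against 5.43% of all genes, and the 1 was Cox7a1 at 1.31 (SE 0.24, limma adjusted p = 0.0417). The sizes of the others moved little, to 0.85 for Cox6a2, 0.84 for Atp5k, 0.56 for Ndufs4 and -0.42 for Ndufv1, with limma adjusted p-values of 0.0961, 0.0877, 0.0641 and 0.136. Without the 4 vehicle arrays high in Xist, 0 subunits were called in either direction by limma, against 7.95% of all genes, and 7 had an unadjusted p under 0.05, with a single array left in each vehicle group. Cox7a1 then differed by 1.35 and Ndufs4 by 0.62.

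The number of lower calls moved with single arrays. The 6 lower subunits became 3 without healthy liver vehicle array 1, 2 without its array 3 and 3 without fatty liver vehicle array 2. In these fits the share of all tested genes called was 35.3%, 35.3% and 35.4%, against 49.6% with all arrays. Between 7 and 10 subunits were higher whichever array was left out. The calls of 8 of the 14 subunits held in all 12 such fits: Ndufa10, Ndufs4, Ndufv1, Uqcrq, Cox6a2, Cox7a1, Cox7c and Atp5k. The split of the calls also moved with the scaling of the arrays, to 11 higher and 4 lower with each array centred on its median and to 9 higher and 12 lower after quantile normalization.

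The second comparison asked the same under anti-VEGF, and it shares no array with the first. Of the 72 subunits, 8 were higher and 10 lower in fatty liver, 18 in all, against 45.8% of all tested genes (18.2% higher, 27.6% lower). The median difference was -0.05, against -0.13 over all tested genes, and 4 subunits (5.56%) differed by more than 0.5 in either direction, against 33.1% of all tested genes. Xist was below the limit on all 6 of these arrays, but Y-linked genes differed between the livers. Eif2s3y read 7.23 to 8.32 in fatty liver and 4.76 to 5.18 in healthy liver, and Kdm5d 6.34 to 7.24 and 4.05 to 4.42. Uty differed likewise, so the liver and whatever sets these genes apart cannot be told apart in this comparison.

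Cox7a1 was again the most raised subunit. It read 5.80, 6.43 and 5.76 in fatty liver with anti-VEGF and 5.26, 4.97 and 5.27 in healthy liver with anti-VEGF, a difference of 0.83 (SE 0.16, 1.78-fold, limma adjusted p = 0.00266). Cox6a2 read 6.64, 6.96 and 6.21, against 5.76, 5.84 and 6.15, and was higher by 0.69 (SE 0.21, limma adjusted p = 0.0238). Neither gene's groups overlapped, and for Cox6a2 the gap was narrow. Cox6b1 was the last of the 3 complex IV calls, at 0.33 (SE 0.12, limma adjusted p = 0.0411), and Cox7c, at 0.30 (SE 0.13, limma adjusted p = 0.0755), did not pass. Cox4i2 differed by 0.33 (SE 0.15, limma adjusted p = 0.0815), and the other complex IV subunits by -0.11 to 0.12. Of the 5 striated muscle genes tested 0 were called here too and 0 had an unadjusted p under 0.05, with a median difference of 0.12.

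In complex I, 6 of 30 subunits fell and 1 rose, with a median difference of -0.08 that was closer to 0 than that of all tested genes. Ndufa9, an accessory subunit near the ubiquinone site, read 10.50, 10.41 and 10.90 in fatty liver with anti-VEGF and 11.20, 11.12 and 11.14 in healthy liver with anti-VEGF. It differed by -0.55 (SE 0.12, limma adjusted p = 0.00443), with no overlap. The membrane-arm accessory subunits Ndufb9 and Ndufb6 differed by -0.45 (SE 0.10, limma adjusted p = 0.00499) and -0.34 (SE 0.11, limma adjusted p = 0.0239). Ndufa12, Ndufv1 and Ndufa10 differed by -0.30, -0.28 and -0.25, with limma adjusted p-values of 0.0288, 0.0427 and 0.05 (just under the threshold before rounding). Ndufa3 was the subunit that rose, by 0.24 (SE 0.09, limma adjusted p = 0.042). Ndufs4 did not pass here, at 0.10 (SE 0.08, limma adjusted p = 0.307), and nor did Ndufs1, at -0.22 (SE 0.09, limma adjusted p = 0.0593).

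Both catalytic subunits of complex II were called in this comparison. These are 2 of the 4 tested (50%), a share near the 45.8% of all tested genes. Sdhb, the iron-sulfur subunit, read 8.62, 8.68 and 8.61 in fatty liver with anti-VEGF and 8.31, 8.30 and 8.43 in healthy liver with anti-VEGF, and was higher by 0.29 (SE 0.07, limma adjusted p = 0.00865). Sdha, the flavoprotein, was higher by 0.28 (SE 0.10, limma adjusted p = 0.0448), a call that held in only 2 of the 12 fits without 1 array. The membrane anchors Sdhc and Sdhd differed by -0.12 (SE 0.13) and 0.03 (SE 0.09). In complex III, 0 of 7 subunits were called at the adjusted threshold and 0 had an unadjusted p under 0.05, with Uqcrh at -0.25 (limma adjusted p = 0.0936), Uqcrq at 0.17, Uqcrfs1 at 0.05 and Uqcrc1 at -0.12.

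Complex V gave 2 rises and 4 falls in 17 subunits, with a median difference of -0.11. Atp5k read 9.13, 8.88 and 8.43 in fatty liver with anti-VEGF and 8.04, 8.23 and 8.14 in healthy liver with anti-VEGF, and was higher by 0.68 (SE 0.16, limma adjusted p = 0.00758). Atp5mpl, a small membrane proteolipid of the synthase, read 9.02, 8.33 and 8.53, against 8.27, 8.19 and 7.99, and was higher by 0.48 (SE 0.18, limma adjusted p = 0.0493). The falls were small. Atp5md, another small membrane subunit, differed by -0.26 (SE 0.08, limma adjusted p = 0.0175), and Atp5g2, a source of the c subunit of the rotor ring, by -0.26 (SE 0.09, limma adjusted p = 0.0362). The alpha and beta subunits Atp5a1 and Atp5b differed by -0.24 (SE 0.08, limma adjusted p = 0.038) and -0.20 (SE 0.07, limma adjusted p = 0.0397).

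**Figure D3:**
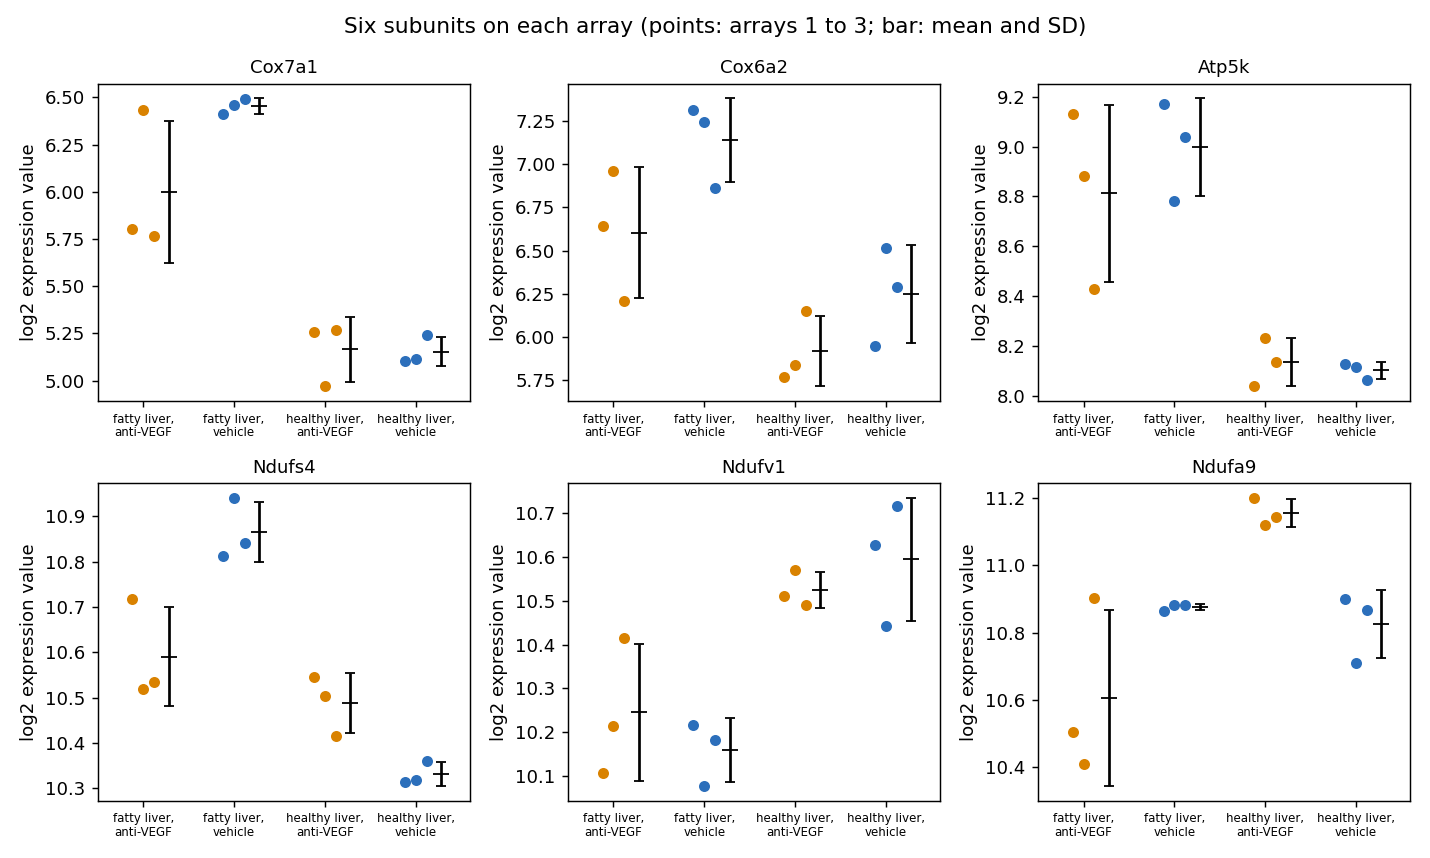
Log2 value of Cox7a1, Cox6a2, Atp5k, Ndufs4, Ndufv1 and Ndufa9 on each of the 12 arrays; points are arrays 1 to 3 of each group from left to right, bars are the group mean and SD, and each panel has its own axis that does not start at 0. Cox7a1 lies between 5.76 and 6.49 on all fatty liver arrays and between 4.97 and 5.27 on all healthy liver arrays.

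Under anti-VEGF, too, the number of calls moved with single and near-identical arrays. With near-identical arrays averaged, 0 subunits were called in either direction by limma, against 3.84% of all genes, and 2 had an unadjusted p under 0.05, while Cox7a1 still differed by 0.83 (SE 0.28, limma adjusted p = 0.159). The 8 higher calls became 3 without array 1 or array 2 of healthy liver with anti-VEGF, and 4 without its array 3, without fatty liver vehicle array 1 or 3, or without fatty liver anti-VEGF array 2. The 10 lower calls became 3 without any of the 3 arrays of healthy liver with anti-VEGF, 4 without fatty liver anti-VEGF array 1, 5 without its array 2 or healthy liver vehicle array 1, and 6 without fatty liver vehicle array 1 or 3. The share of all tested genes called was 32.2% to 35.5% without the anti-VEGF arrays just named, against 45.8% with all arrays. Without the vehicle arrays just named it was 42.3% to 42.9%. Those vehicle arrays are outside this comparison and enter it only through the shared estimate of the spread. Ndufa9, Ndufb9, Sdhb, Cox7a1 and Atp5k, 5 of the 18, held in all 12 such fits. Centring each array on its median gave 5 higher and 15 lower, and quantile normalization 7 higher and 12 lower.

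Across the liver comparisons, 8 subunits were called in both, each in the same direction. Atp5k, Cox6a2, Cox6b1, Cox7a1 and Ndufa3 were higher in fatty liver under both treatments, and Atp5b, Ndufa10 and Ndufv1 were lower. They make up 57.1% of the calls under vehicle and 44.4% of those under anti-VEGF. Over all tested genes the corresponding shares were 75.7% and 82.1%. The mean level of the 14 tested complex IV subunits was 8.85, 8.96 and 8.75 on the arrays of fatty liver with anti-VEGF and 8.99, 8.92 and 8.95 with vehicle. In healthy liver it was 8.67, 8.66 and 8.72 with anti-VEGF and 8.68, 8.65 and 8.72 with vehicle, so that all fatty liver arrays lay above all healthy liver arrays. Without Cox7a1 and Cox6a2, a setting chosen after seeing the data, the mean of the other 12 was 9.21 to 9.33 in fatty liver with anti-VEGF and 9.26 to 9.34 with vehicle, against 9.20 to 9.22 and 9.12 to 9.21 in healthy liver, and the groups with anti-VEGF overlapped. The mean of the 30 complex I subunits was 8.73 to 8.80 in fatty liver with anti-VEGF and 8.82 to 8.85 in fatty liver with vehicle, against 8.86 to 8.87 in healthy liver with anti-VEGF and 8.76 to 8.93 in healthy liver with vehicle, and these ranges overlap under vehicle.

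A further pair of comparisons asked how anti-VEGF treatment differed from vehicle within each liver. No subunit passed the limma adjusted threshold in fatty liver (0 of 72, with 0.00753% of all tested genes called) or in healthy liver (0 of 72, with 0% of all tested genes called). Unadjusted p-values under 0.05 were found for 7 subunits in fatty liver (9.72%, against 5.86% of all tested genes) and 4 in healthy liver (5.56%, against 8.41%). The smallest limma adjusted p of a subunit was 0.795 in fatty liver and 0.458 in healthy liver. The median differences were -0.04 and 0.01, with 0.01 over all tested genes in either liver.

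Within fatty liver the differences ran from -0.54 to 0.30. The 7 subunits with an unadjusted p under 0.05 all had negative differences, with limma adjusted p = 0.795 for each: Ndufs4 (-0.27, SE 0.08), Ndufa9 (-0.27, SE 0.12), Ndufb8 (-0.28, SE 0.12), Ndufb9 (-0.24, SE 0.10), Uqcrq (-0.28, SE 0.11), Cox6a2 (-0.54, SE 0.21) and Cox7a1 (-0.46, SE 0.16). Ndufb8 falls outside the naming rule and was chosen after its value was seen. Cox7a1 read 5.80, 6.43 and 5.76 with anti-VEGF and 6.41, 6.46 and 6.49 with vehicle, so that 2 of the 3 treated arrays lay below all vehicle arrays and the other among them. Atp5g1, Atp5j2 and Uqcr11 differed by -0.28 (SE 0.13), 0.27 (SE 0.14) and 0.20 (SE 0.12), and Sdha and Sdhb by 0.09 (SE 0.10) and 0.06 (SE 0.07). Cox4i2 had the largest difference upwards, at 0.30 (SE 0.15), and its groups overlapped. The groups did not overlap in Ndufa12, Ndufa7, Ndufb9, Ndufs4, Uqcrq, Atp5g1 and Atp5j2. How many of all tested genes lacked overlap was not counted here either.

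Within healthy liver the differences ran from -0.34 to 0.33. Ndufa9 read 11.20, 11.12 and 11.14 with anti-VEGF and 10.90, 10.71 and 10.87 with vehicle, a difference of 0.33 (SE 0.12, limma adjusted p = 0.475). The other subunits with an unadjusted p under 0.05 were Atp5g1, at 0.32 (SE 0.13), Uqcr11, at 0.29 (SE 0.12), and Sdhb, at -0.20 (SE 0.07). In these 4 genes the groups did not overlap. Nor did they in Ndufb11, Ndufb9, Ndufc2, Ndufs4, Ndufv2, Ndufv3, Sdha, Atp5g3 and Atp5pb, whose unadjusted p was over 0.05. The share of all tested genes without overlap was not counted, and the 3 arrays of healthy liver with anti-VEGF were near-identical. Nothing is therefore read from this list. Cox6a2 and Cox7a1 differed by -0.33 (SE 0.21) and 0.01 (SE 0.16), Sdha by -0.17 (SE 0.10), Ndufs4 by 0.16 (SE 0.08), Atp5l by 0.26 (SE 0.13), and Uqcrfs1 and Cox6a1 by 0.07 (SE 0.11) and -0.07 (SE 0.07). Because 2 of 3 vehicle arrays in each liver were high in Xist and none of the anti-VEGF arrays was, the treatment and whatever sets Xist apart cannot be fully told apart in these comparisons.

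**Figure D4:**
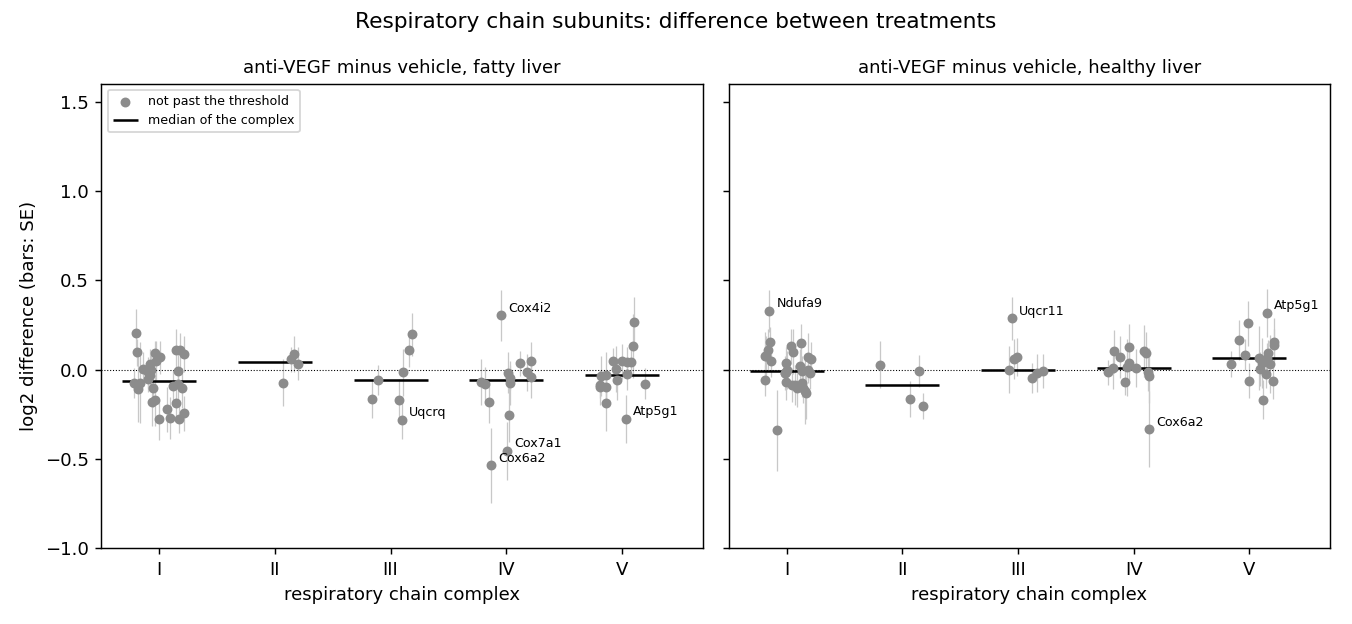
Difference in log2 value between anti-VEGF and vehicle in fatty liver (left) and in healthy liver (right) for each of the 72 tested subunits, by complex, on the same scale as the plot of the liver differences; points are genes, bars are standard errors and black lines are medians. No point passes the adjusted threshold, and all lie between -0.54 and 0.33.

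The interaction asked whether the response to anti-VEGF differed between the livers. The number of subunits past the limma adjusted threshold was 0, as over all tested genes (0%), and 5 subunits (6.94%) had an unadjusted p under 0.05, against 5.1% of all tested genes. The difference between the responses in fatty and in healthy liver was -0.60 for Ndufa9 (SE 0.17, limma adjusted p = 0.85), -0.59 for Atp5g1 (SE 0.19, limma adjusted p = 0.958) and -0.43 for Ndufs4 (SE 0.11, limma adjusted p = 0.823). It was -0.37 for Ndufb9, 0.26 for Sdhb and 0.25 for Sdha, and -0.47 for Cox7a1 (SE 0.23, limma adjusted p = 0.969). The values of Uqcrq, Uqcrfs1, Cox4i1 and Atp5g3 lay between -0.26 and -0.19. That Ndufs4 passed only under vehicle, and Ndufa9, Ndufb9 and Sdhb only under anti-VEGF, was therefore not a difference between the comparisons that passed its own test.

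Other genes of the same organelle were then set beside the nuclear subunits. The 10 measured mitochondrially encoded subunits (ND1 to ND6, ND4L, CYTB, COX1 and COX3) gave 0 calls in either liver comparison by limma, and 0 of them had an unadjusted p under 0.05 there. Their median differences were 0.01 under vehicle and -0.01 under anti-VEGF, and the largest was ND6, a complex I subunit, at 0.29 (SE 0.15) under anti-VEGF. The mean level of these 10 genes ranged from 12.08 to 12.28 in fatty liver with anti-VEGF and from 12.05 to 12.26 in fatty liver with vehicle, against 12.14 to 12.20 in healthy liver with anti-VEGF and 12.09 to 12.24 in healthy liver with vehicle.

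Of 47 factors that assemble the complexes, 15 fell (31.9%, against 30.4% of all tested genes) and 5 rose (10.6%, against 19.2%) under vehicle. Under anti-VEGF 14 fell (29.8%, against 27.6%) and 2 rose (4.3%, against 18.2%), so that the share that fell was near that of all genes in either comparison. The median differences were -0.20 and -0.22. Ecsit, a complex I assembly factor, differed by -0.42 (SE 0.09, limma adjusted p = 0.00427) under vehicle and -0.60 (SE 0.09, limma adjusted p = 0.000638) under anti-VEGF. Cox16, of complex IV assembly, differed by -0.53 and -0.55, and Timmdc1, of complex I assembly, by -0.51 under vehicle. Lrpprc, which stabilises mitochondrial messages, and the complex III factor Uqcc2 differed by -0.64 and -0.48 under anti-VEGF. Ndufaf3, a complex I assembly factor, went the other way, at 0.49 (SE 0.10, limma adjusted p = 0.00332) under vehicle.

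Of 68 tested mitochondrial ribosomal proteins, 28 fell (41.2%, against 30.4% of all tested genes) and 2 rose under vehicle, and 26 fell (38.2%, against 27.6%) and 0 rose under anti-VEGF. Their median differences were -0.25 and -0.23, against -0.12 and -0.13 over all tested genes. Mrpl49, Mrpl38, Mrps5 and Mrps26 differed by -0.84, -0.79, -0.67 and -0.61 under vehicle. Under anti-VEGF Mrpl9, Mrps22, Mrps5 and Mrpl39 differed by -0.65, -0.52, -0.51 and -0.41. Of the 12 citrate cycle genes, whose enzymes feed electrons to the chain, 9 fell (against 30.4% of all tested genes) and 0 rose (against 19.2%) under vehicle, and 7 fell (against 27.6%) and 1 rose (against 18.2%) under anti-VEGF. Under vehicle these included Idh3a at -0.52, Dld at -0.49, Suclg2 at -0.71 and Dlst at -0.30. Under anti-VEGF Dld, Dlst and Mdh2 differed by -0.54, -0.28 and -0.30, and Ogdh was the gene that rose, at 0.36 (SE 0.07, limma adjusted p = 0.0035).

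**Figure D5:**
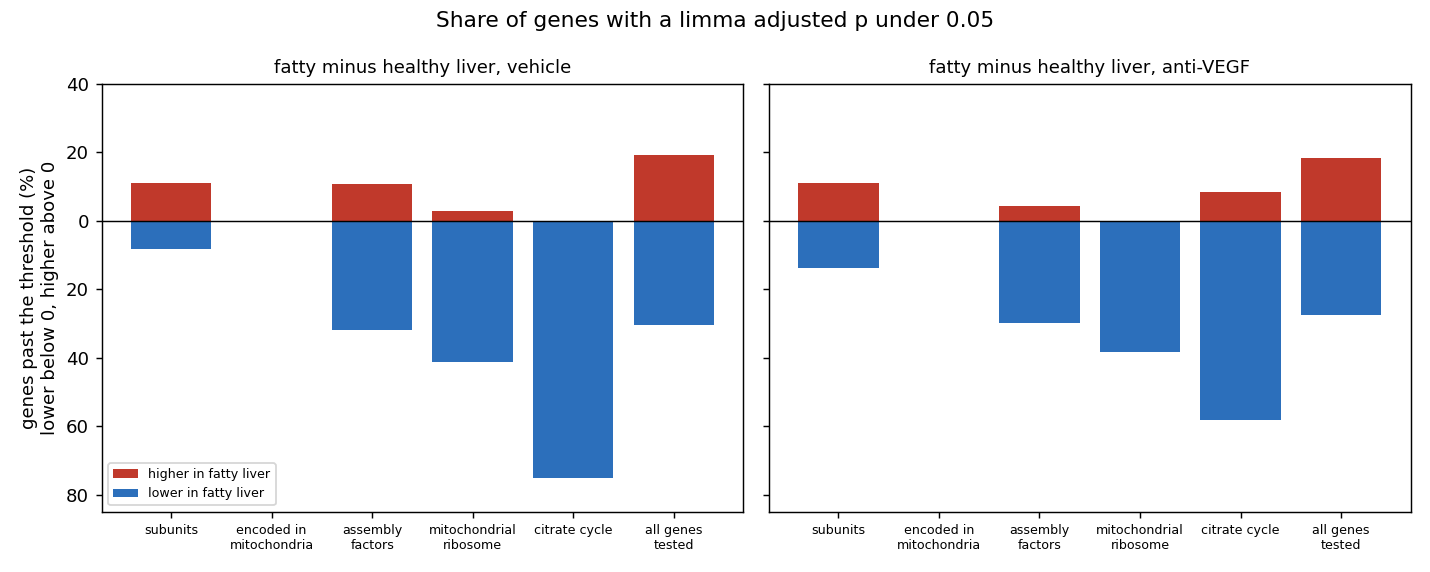
Share of genes past the limma adjusted threshold in fatty against healthy liver, under vehicle (left) and anti-VEGF (right), for the 72 nuclear subunits, 10 mitochondrially encoded subunits, 47 assembly factors, 68 mitochondrial ribosomal proteins, 12 citrate cycle genes and all 13286 tested genes; bars above 0 are higher and bars below 0 lower in fatty liver. The nuclear subunits have bars of similar size in both directions, whereas the ribosomal and citrate cycle bars lie mostly below 0.

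Regulators of mitochondrial gene expression were measured as well. Of 11 tested, 4 fell (36.4%, against 30.4% of all tested genes) and 2 rose (against 19.2%) under vehicle, and 3 fell (27.3%, against 27.6%) and 1 rose (against 18.2%) under anti-VEGF, shares that lie near those of all genes or rest on 1 gene. The mitochondrial transcription factor Tfb2m differed by -0.57 (SE 0.10, limma adjusted p = 0.00193) under vehicle and -0.94 (SE 0.10, limma adjusted p = 0.000105) under anti-VEGF. Tfam, which packages and transcribes mitochondrial DNA, differed by -0.73 (SE 0.15, limma adjusted p = 0.00337) under vehicle, and Polrmt, the mitochondrial RNA polymerase, by -0.56 and -0.42. The coactivator Pprc1 differed by -0.47 and -0.39, and its relative Ppargc1b rose by 0.57 (limma adjusted p = 0.0259) under vehicle and 0.69 (limma adjusted p = 0.0128) under anti-VEGF. Ppargc1a and Esrrg, a coactivator and an ERR receptor that drive oxidative genes in muscle, were below the limit on all 12 arrays. Of the carriers beside the complexes, Slc25a4, the heart and muscle type of ADP/ATP carrier, fell by 0.46 (SE 0.11, limma adjusted p = 0.00828) on the log2 scale under vehicle and by 0.39 (SE 0.11, limma adjusted p = 0.0198) under anti-VEGF. The other 5 carriers tested were not called, among them Cyc1, Slc25a3 and Slc25a5 at -0.11, -0.08 and 0.08 under vehicle, and the testis cytochrome c gene Cyct was below the limit. In the treatment and interaction comparisons 0 genes of these 6 lists passed the limma adjusted threshold, and 5, 11 and 8 of them had an unadjusted p under 0.05 in fatty liver, in healthy liver and for the interaction.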

How the data were processed

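RNA of mouse colorectal cancer tissue was labelled with biotin and measured on 12 single-colour Affymetrix whole-transcript arrays, per the labels' protocols. The authors deposited 1 value per array and row, made with Affymetrix Expression Console per the submitters' processing notes. For its version, summarisation, normalization and build nothing is stated in the sources used here. The deposited values were read as log2 from their range, and neither that scale nor any centring is stated. Column medians ran from 4.88 to 4.99 and are 4.99, 4.91 and 4.88 in fatty liver with anti-VEGF, 4.90, 4.95 and 4.93 in fatty liver with vehicle, 4.95, 4.93 and 4.95 in healthy liver with anti-VEGF, and 4.92, 4.95 and 4.92 in healthy liver with vehicle.

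Of 41345 rows, 23521 had 1 gene symbol in the platform annotation, 1814 several and 16010 none; only the first were used. Where a gene had several rows (1082 genes, 9 of them subunits), that with the highest mean stood for it. All 12 arrays entered 1 limma fit (version 3.58.1, R 4.3.3) with a mean per group, 8 residual and 2.40 prior degrees of freedom, and 5 contrasts. The fit was also run on simulated data with independent noise on each array. Those data hold no near-identical arrays, so they cannot show the effect of these. No scanner background was used, and the number of arrays limits the precision.

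The members, lists and tests were chosen with earlier results of these data known. The text names, per contrast and complex, up to 3 called subunits in each direction by size, or else the 2 with the smallest p, a fixed set of isoforms and core subunits, and up to 4 genes of each related list by smallest p; further called subunits and regulators are named beside these. The labels number the replicates 1 to 3 in every group. As a check of pairing, deviations from the group means were correlated between arrays of the same number, and every pair exceeded 0.1 for 1 pair of groups, fatty and healthy liver with vehicle (0.536, 0.701 and 0.549). No label states such a pairing, and arrays 1 and 3 correlated across numbers too (0.574 and 0.553).

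Alternatives were other scalings, filters and row choices, array weights, the replicate block, fits on the compared groups alone, averaging of near-identical arrays (SD of the difference under 0.2), and leaving out arrays. Promoter windows came from RefSeq.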

Additional observations from a re-analysis of the deposited data

How the results depend on the processing

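Counts are given as subunits higher and lower, with the share of all genes called beside them. With array weights, 4 and 9 were called for anti-VEGF against vehicle in fatty liver, 2 and 3 in healthy liver, 16 and 21 between livers under vehicle, 19 and 18 between livers under anti-VEGF, and 3 and 5 for the interaction, while the share of all genes called was 13.9%, 12.5%, 71.1%, 74.4% and 11.1%; those weights ran from 0.137 to 3.80. Between livers under vehicle, averaging near-identical arrays gave 1 and 0 (5.43% of all genes called), leaving out the 4 vehicle arrays labelled 1 and 3 gave 0 and 0 (7.95%), with each lone array taken to vary as the other groups do, and the lower count was 12 after quantile normalization (50.4%), 3 with no filter (28%), 3 in a fit of the compared groups alone (46.5%) and 11 without healthy liver vehicle array 2 and fatty liver anti-VEGF array 3 (61.0%). Between livers under anti-VEGF, averaging gave 0 and 0 (3.84%), the compared groups alone or the omission of the 4 vehicle arrays 5 and 3 (38.4% each), no filter 4 and 5 (25.7%), and centring 5 higher (51.8%). Leaving out each array in turn gave 7 to 10 higher and 2 to 9 lower under vehicle (35.3% to 55.2%). Under anti-VEGF it gave 3 to 8 higher and 3 to 11 lower (32.2% to 56.3%). Atp5d under vehicle moved to 0.0052 (SE 0.08) with the mean of its rows, which read in opposite directions. The cause of the other changes was not tested, beyond fewer arrays or more genes tested where a setting brings these. With the replicate block, the paired analysis gave 9 and 6 under vehicle, 8 and 5 in a fit of the 6 vehicle arrays alone (chosen after seeing the data), and 7 and 9 under anti-VEGF, and it moved no count of calls by over 1.5 times. Under anti-VEGF, where the numbers do not pair the arrays, the calls of Ndufa10, Ndufa3 and Atp5b were not among those made with the block. Atp5g1 was called there with the block, at -0.29. Of the counts, 186 alternatives stayed within 1.5 times, counts of 0 in the treatment and interaction comparisons among them. By more than that, 32 were lower and 12 higher. Of the named subunits' results 1984 kept their side of the threshold, and 212 lost and 52 gained a call. The 1 left, Atp5d with the mean of its rows, lost its call and changed sign. Direction was not compared where neither fit gave a call.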

Other observations

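Some subunits had wide ranges and no call in the fit of all 12 arrays with equal weights. Ndufb11, a complex I accessory subunit encoded on the X chromosome, was below the limit on array 1 of fatty liver with anti-VEGF and read 5.32 and 5.91 on arrays 2 and 3, against 5.45, 5.32 and 5.49 in fatty liver with vehicle. In healthy liver it read 5.44, 5.34 and 5.46 with anti-VEGF and 5.80, 5.50 and 5.96 with vehicle, and under array weights its treatment difference in healthy liver was called. With the replicate block and the 6 vehicle arrays only, its difference between livers of -0.33 was called too (limma adjusted p = 0.0317). Its spread was widest within fatty liver with anti-VEGF. Ndufa1, another X-linked complex I subunit, differed between fatty and healthy liver by 0.30 (SE 0.14, limma adjusted p = 0.105) with vehicle. With anti-VEGF the difference was 0.26 (SE 0.14, limma adjusted p = 0.159), and neither passed. Ndufa6, an accessory subunit of the matrix arm, differed by 0.23 (SE 0.18) and 0.25 (SE 0.18), and read 9.02 on array 1 of fatty liver with anti-VEGF, against 8.42 and 8.53 on the others of that group.

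Rows of the same subunit did not always run together. Cox7b read -0.10 between fatty and healthy liver under anti-VEGF by its brighter row and -0.69 by the other, whose mean over the 12 arrays, 4.62, lies below the limit. For Ndufa11 the brighter row gave -0.37 under vehicle and the other -0.89, while under anti-VEGF they gave -0.23 and -0.15. Ndufa12 gave -0.30 by either row under anti-VEGF. These 3 genes were chosen after their values were seen.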
